A study of Mus musculus with 12 samples.

Results

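The cytochrome P450 genes were taken from the table of raw counts as every gene whose symbol is Cyp followed by a number, a letter or letters and a number. The pattern chose 86 of the 18514 genes listed and used no measured value. It leaves out symbols of another form, such as Cyp51. Of the 86 genes, 48 passed the filter on low counts and were tested, 38 did not, and 1 of these (Cyp2a22) had no count in any library. RNA was sequenced from the colorectal tissue of 12 male C57BL/6 mice, with 1 library from each mouse and 3 mice in each of 4 groups. All were bought at an age of 4 weeks, and their age at sampling is not given in the sources used here. Ctrl and Ctrl_Swim mice drank ordinary water and received neither AOM nor DSS, the treatments described next. Ctrl_Swim mice swam daily, in sessions lengthened to 90 minutes. In place of swimming, Ctrl and Model mice stood in shallow water. Model mice were injected with azoxymethane (AOM, 10 mg/kg), which causes colon tumours, and then drank 2% dextran sodium sulfate (DSS), which injures and inflames the colon lining, for 7 days in each of 3 cycles. Model_Swim mice received the same AOM and DSS, and their swimming began before the AOM injection and went on until the study ended, so that the Model_Swim comparisons concern swimming both before and during treatment. No transgene or deleted gene is named for any group, and all samples were pieces of whole tissue, so that fewer cells of a type and less RNA per cell cannot be told apart.

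P450 enzymes are heme proteins that insert 1 oxygen atom into a substrate, with electrons passed on by P450 reductase in the endoplasmic reticulum or by adrenodoxin in mitochondria. In the gut lining they oxidise food components, drugs and fatty acids, and a smaller number make or break down signals such as retinoic acid, oxysterols and vitamin D. Enzymes of the Cyp2c and Cyp2j subfamilies convert arachidonic acid to epoxides, and those of the Cyp4 family hydroxylate fatty acids and eicosanoids at the chain's end. Cyp2e1, known mainly from liver, carries out the oxidation steps that turn AOM into a DNA-alkylating compound.

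The libraries held between 17256953 and 19451055 counts, and 3 counts, the number below which a gene is not told from 0, are worth between 0.153 and 0.172 CPM (counts put on a common scale by library size and TMM factors). Several libraries stood apart in ways that touch the results below. Hoxb6 and Hoxb8, homeobox genes that mark position along the gut, lay at 1.39 and 1.34 CPM in Model 1 and at 3.81 and 1.04 CPM in Model 2, against 36.4 to 58.8 and 16.7 to 28 CPM in the other libraries. Model 3 had the lowest Hoxd13 (0.287 CPM) and Hoxb13 (7.58 CPM), genes of the distal colon. Model 1 and Model 2 had the highest, with 48.6 and 48.2 CPM of Hoxd13 and 170 and 168 CPM of Hoxb13. The other libraries had at most 34 and 125 CPM. The 16 markers of pancreatic acinar cells summed to 50600 CPM in Model 1 and 24600 CPM in Model 3, against 93.7 to 214 CPM in the other libraries. Colonocyte markers were present throughout, with a sum of 10 markers of at least 12500 CPM in every library.

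The P450 genes took between 0.253% and 0.391% of all counts in 10 libraries, but 0.102% in Model 1 and 0.162% in Model 2. Model 3, at 0.37%, lay with the 10. The level per gene length (FPKM, fragments scaled by gene length and by depth, as deposited) was concentrated in a few genes. Cyp2c55, an arachidonic acid hydroxylase, had a mean of 749 FPKM over the 12 libraries and made up 57.3% of the summed FPKM of the family. Cyp2c65, of the same subfamily, followed at 111 FPKM. In Model 1 and Model 2 it lay below Cyp2d34 (13.72 and 14.33 FPKM against 73.75 and 117.4 FPKM). Then came, by mean over the 12 libraries, Cyp2d34 at 60.9 FPKM and Cyp4f14, which hydroxylates leukotriene B4, at 51.6 FPKM. Their order differed by group, since Cyp4f14 was the higher in Ctrl (59.7 against 45.6 FPKM) and Ctrl_Swim (57 against 37.5 FPKM). The next were Cyp2s1 at 38.6 FPKM, an enzyme of surface epithelia, and Cyp3a13 at 38.1 FPKM, a Cyp3a enzyme of the intestine. Cyp4f40 at 31.6 FPKM, Cyp2d26 at 28.5 FPKM and Cyp4f16 at 25.2 FPKM came after them. The first 15 genes held 93.1% of the family's FPKM, 30 genes had a mean of at least 1 FPKM, and 14 had a mean of at least 10 FPKM. In Ctrl mice Cyp2c55 stood at 654 to 896 FPKM and Cyp2c65 at 123 to 141 FPKM, so that the order of these 2 did not depend on the mouse. Cyp2s1 at 43.5 to 46.3 FPKM and Cyp3a13 at 35.6 to 40.9 FPKM in Ctrl mice were ordered the same way, but over all 4 groups their ranges overlapped. The share of Cyp2c55 in the family's FPKM was 20.7% in Model 1 and 29.6% in Model 2 against 51.6% to 67% in the other libraries.

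**Figure D1:**
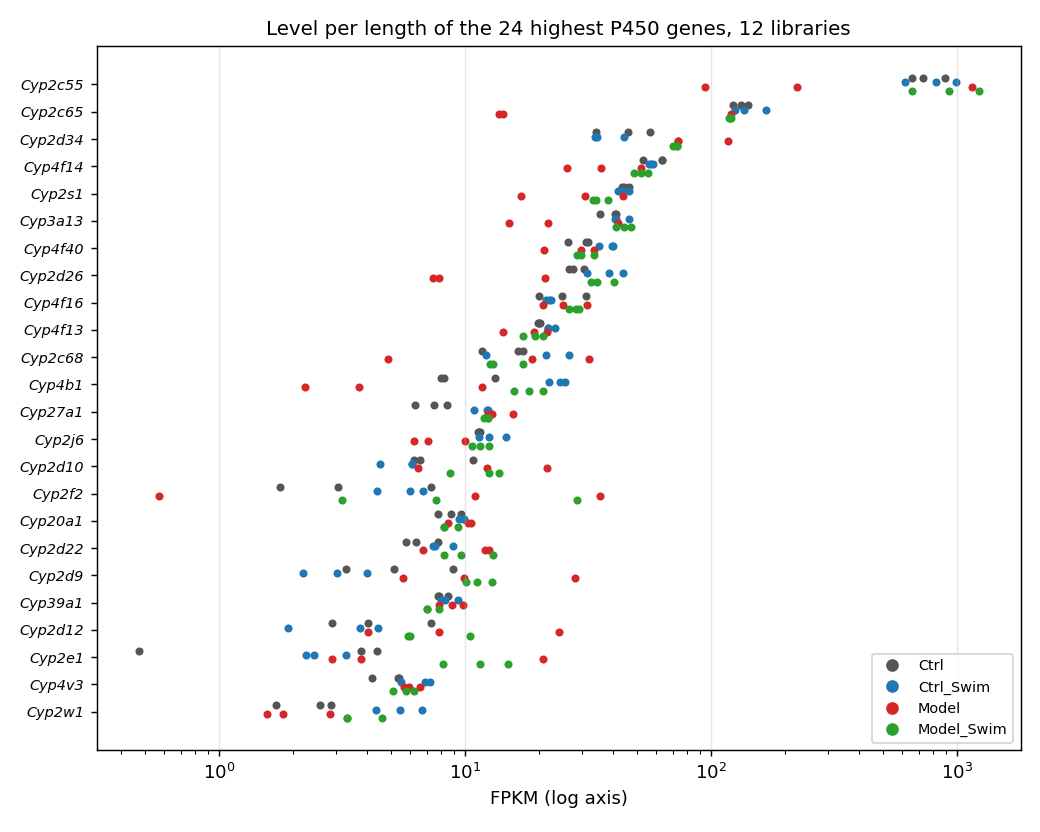
Level per length of the 24 P450 genes with the highest mean FPKM, with FPKM on a log axis, 1 point per library and colours for the 4 groups. Cyp2c55 lies highest with a mean of 749 FPKM, and 2 Model libraries sit to the left of the rest for Cyp2c55 and Cyp2c65.

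The comparison of Model with Ctrl asks which P450 genes differed in untrained mice after AOM and DSS. By edgeR's quasi-likelihood test, 6 of the 48 tested genes (12.5%) passed an adjusted p of 0.05 with a change over 2-fold, against 7.43% of all 15484 genes tested. Higher were 4 genes (8.33% against 6.21% of all genes), namely Cyp26b1, Cyp7b1, Cyp2b10 and Cyp4f39. Lower were 2 genes (4.17% against 1.22%), Cyp2d26 and Cyp2u1. With the adjusted p alone, 11 genes passed (22.9% against 32.7% of all genes), 7 of them higher (14.6% against 16.5%) and 4 lower (8.33% against 16.2%). The additional 5 were Cyp27a1, Cyp2d34 and Cyp4f18, which were higher, and Cyp2j6 and Cyp4f14, which were lower. Both groups were fully apart in 15 of the 48 genes (31.2%), against 44.2% of all genes. The median log2 fold change was 0.17 over the 48 genes and 0.01 over all genes tested. The number called depended on which library was left out. Without Model 3, 19 P450 genes were called (against 10.7% of all genes), 9 higher and 10 lower, with all 6 above among them. Without Model 1 or without Model 2, 3 were called (against 6.03% and 5.87%), and without each of the Ctrl mice in turn 4 were (against 4.57% to 5.59%). Without both libraries with acinar markers, Model 1 and Model 3, 17 were called (against 8.09%). Model 2 is then the only Model mouse, and the test assumes that it varies as the mice of the other groups do.

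**Figure D2:**
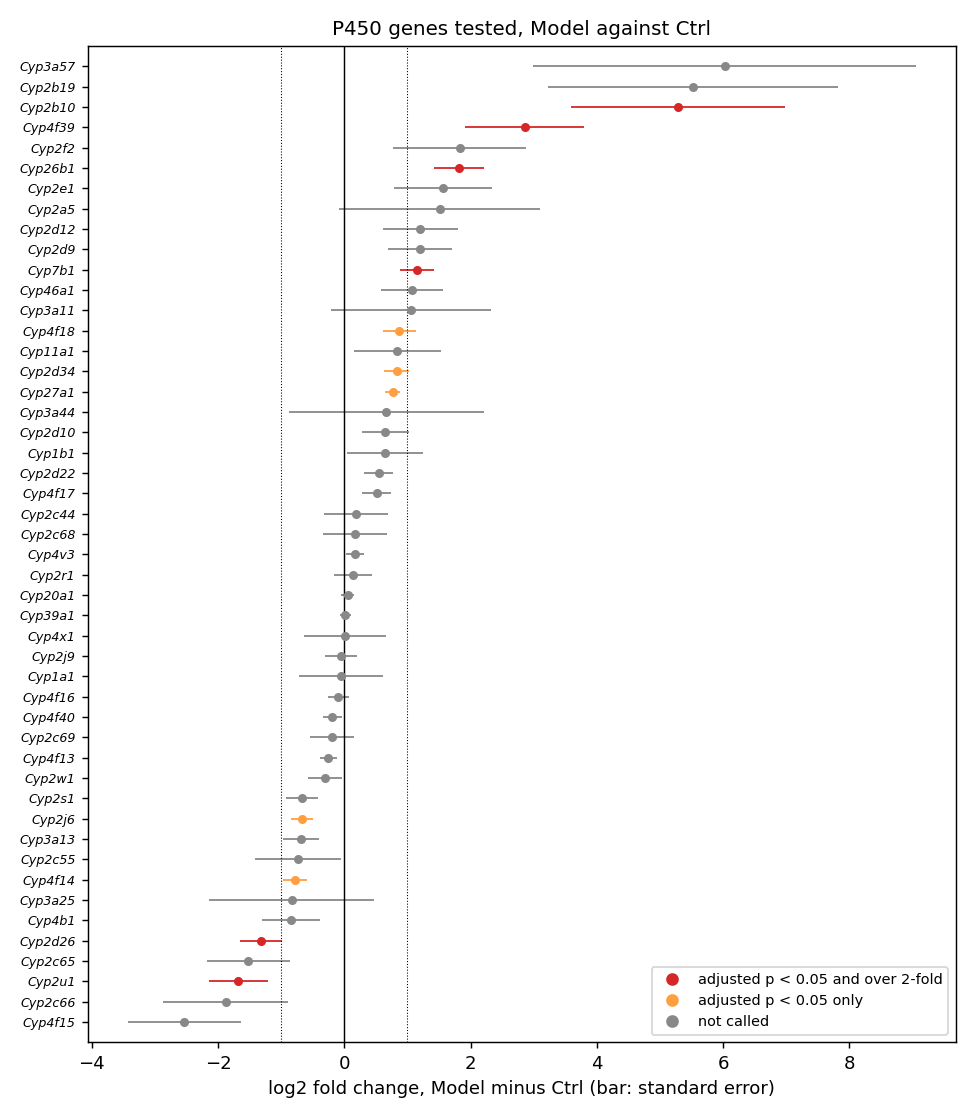
Log2 fold change of Model minus Ctrl for the 48 P450 genes tested, 1 gene per line, with bars for the standard error, dotted lines at the 2-fold limits, red for the 6 genes called and orange for the 5 that passed by adjusted p alone. Both Cyp2b10, which was called, and Cyp2b19, which was not, have wide bars and low counts.

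Cyp2c55 and Cyp2c65, the 2 P450 genes highest by mean FPKM, and the rarer Cyp2c66 (mean 3.08 FPKM) are neighbours on chromosome 19 (GRCm38.p6). They lie on the plus strand at chr19:39006940-39042690, chr19:39061006-39093948 and chr19:39113898-39186756, within 180 kb. The bases before their RefSeq start sites are printed because all 3 genes were low in Model 1 and Model 2, as described next. For Cyp2c65 (chr19:39060756-39061005) and Cyp2c66 (chr19:39113648-39113897) these are the 250 bases before the start. For Cyp2c55 only the 30 bases around its TATA box are given (chr19:39006978-39007007). The promoter table takes a later start site for Cyp2c55 than the first base of its annotated span, so these 30 bases lie before that start site but inside the span. Capitals mark TATAAA (the letters of the TATA box), its variant with the letters TATATAA on either strand, and AAAGTCCA (the core bound by HNF4). Counted from the start site, TATAAA began at -29 in Cyp2c55 but at -162 in Cyp2c65 and -150 in Cyp2c66. The variant began nearer to it, at -30 in Cyp2c65 and -18 in Cyp2c66.
Cyp2c55: ggcagctagcatTATAAAagccctgggctg
Cyp2c65: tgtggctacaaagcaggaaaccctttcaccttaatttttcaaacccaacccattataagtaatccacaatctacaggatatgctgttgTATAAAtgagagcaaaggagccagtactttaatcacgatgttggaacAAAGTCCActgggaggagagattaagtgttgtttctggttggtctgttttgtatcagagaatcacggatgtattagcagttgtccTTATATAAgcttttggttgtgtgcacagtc
Cyp2c66: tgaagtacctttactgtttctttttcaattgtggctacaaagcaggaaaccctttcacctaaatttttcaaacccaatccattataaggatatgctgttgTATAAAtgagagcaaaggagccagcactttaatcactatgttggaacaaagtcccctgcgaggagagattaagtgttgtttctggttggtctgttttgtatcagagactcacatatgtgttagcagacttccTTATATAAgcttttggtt
The windows of Cyp2c65 and Cyp2c66 were 74.2% identical over 264 aligned columns, with a longest shared run of 48 bases. The 250 bases before the start of Cyp2c55 were 54.7% and 51.1% identical to those of Cyp2c65 and Cyp2c66. AAAGTCCA was present in the Cyp2c65 window and absent as these letters from the Cyp2c66 window. Over each promoter of the table around the start site and both strands, it was present in 9 of the 76 RefSeq promoters found for 69 P450 genes (11.8%), against 1.25% of 32851 promoters. Besides Cyp2c65, these 9 included Cyp2c67, Cyp2c68, Cyp2c40, Cyp2c69 and Cyp2c70, so that most lay in this cluster of related genes. The others were Cyp3a11, Cyp3a16 and Cyp8b1. TATAAA was present in 38.2% of the P450 promoters and 13.6% of all, with some overlap between it and TATATAA. The core of the response element of the aryl hydrocarbon receptor, GCGTG, was present in 22.4% of the P450 promoters and 32.4% of all. These are matches of letters and no measure of binding.

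Cyp2c65 was measured at 275.3, 286.5 and 253.6 CPM in Ctrl mice and at 26.27, 26.86 and 231.5 CPM in Model mice. In Ctrl_Swim it was 332.3, 235.5 and 245.9 CPM and in Model_Swim 229.7, 230.1 and 230.1 CPM. Model 1 and Model 2 thus stood far below every other library, and Model 3 lay just below the Ctrl mice. The log2 difference of Model from Ctrl was -1.52 ± 0.66 (SE, n = 3 against 3), with an adjusted p of 0.0965 by edgeR's quasi-likelihood test. Cyp2c55 was 1454, 1944 and 1609 CPM in Ctrl mice but 192.6, 446.6 and 2364 CPM in Model mice. The 2 groups overlapped because of Model 3, which had the highest level of these 6 mice, and the log2 difference was -0.74 ± 0.68 (SE) with an adjusted p of 0.423. In Ctrl_Swim mice Cyp2c55 stood at 2105, 1635 and 1180 CPM and in Model_Swim mice at 2525, 1898 and 1345 CPM. Cyp2c66 was 3.809, 6.542 and 4.618 CPM in Ctrl mice and 0.1608, 0 and 3.96 CPM in Model mice, again with Model 1 and Model 2 at or below the level of 3 counts. Since 20.6% of the 50-base stretches of Cyp2c65 transcripts also occur in other genes, mainly Cyp2c66, some reads of these 2 genes could not be assigned to one of them.

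On all 12 libraries, Cyp2c65 was called by limma in each of 3 settings on FPKM and Cyp2c66 in 2 of them, and with the adipocyte list as a covariate edgeR called both and Cyp2c55. Without Model 3, both abundant genes passed edgeR's test. The log2 difference of Cyp2c65 between Model and Ctrl was then -3.34 (adjusted p = 8.56e-07) and that of Cyp2c55 was -2.38 (adjusted p = 0.00116). Without Model 1 and Model 2, a choice made after seeing the data, these differences were -0.23 (adjusted p = 0.332) for Cyp2c65 and 0.5 (adjusted p = 0.301) for Cyp2c55. These values set Model 3 alone against the Ctrl mice, with its spread again assumed to be that of the other groups. The same 2 libraries were the ones with Hoxb6 and Hoxb8 near 0 and with the most Hoxd13 and Hoxb13. With the mean log2 CPM of Hoxb6 and Hoxb8 as a covariate, also chosen after seeing the data, the difference was -0.5 (adjusted p = 0.0418) for Cyp2c65 and 0.3 (adjusted p = 0.592) for Cyp2c55. The part of the segment sampled and the AOM and DSS treatment cannot be told apart in these 2 mice from the expression values. Cyp2c68, farther along the cluster, was not low in both of these libraries. It was 22.96, 31.35 and 33.59 CPM in Ctrl mice and 33.83, 56.28 and 8.782 CPM in Model mice, with Model 2 the highest and Model 3 the lowest of the 12 libraries. The log2 difference of Cyp2c68 was 0.17 (adjusted p = 0.813 by edgeR). Its counts are uncertain, since 43.3% of its 50-base stretches also occur in other genes, mainly Cyp2c40. With Hoxb6 and Hoxb8 as a covariate Cyp2c68 was called, as lower in Model.

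**Figure D3:**
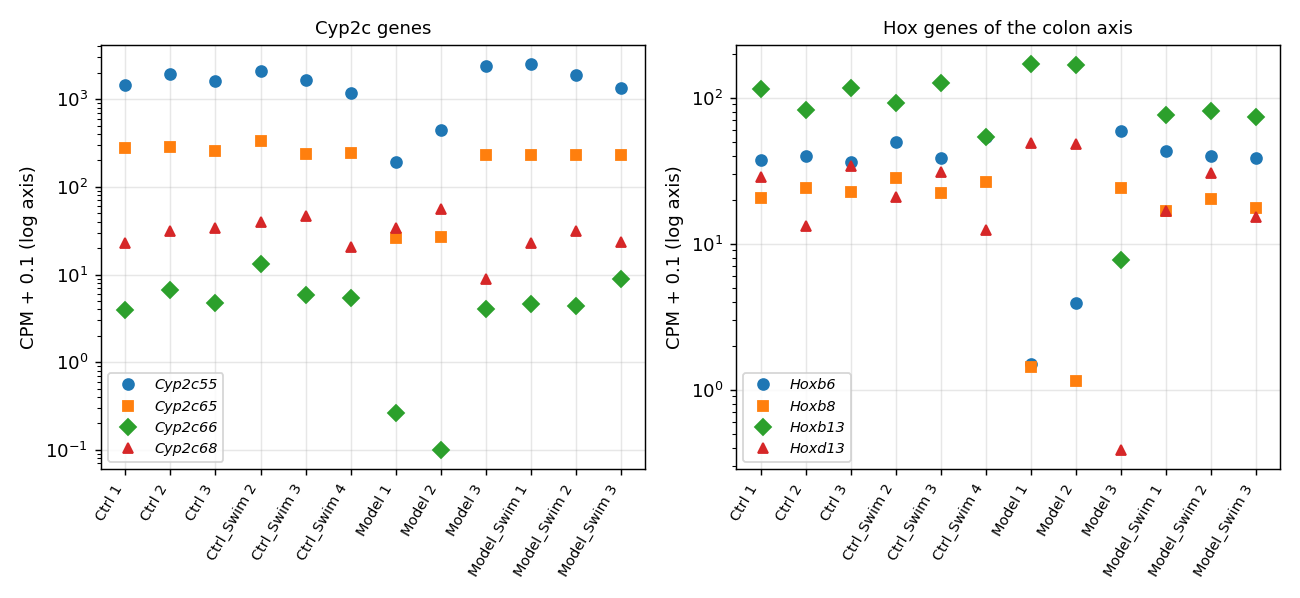
CPM + 0.1 on log axes for 4 Cyp2c genes (left) and 4 Hox genes (right) in each of the 12 libraries. Cyp2c55, Cyp2c65 and Cyp2c66 are low in Model 1 and Model 2, where Hoxb6 and Hoxb8 are at 1.04 to 3.81 CPM. Hoxd13 and Hoxb13 are highest in Model 1 and Model 2 and lowest in Model 3.

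Cyp2e1, the enzyme of AOM oxidation, was a gene of intermediate level here, with a mean of 6.57 FPKM and rank 22 in the family. It stood at 0.8832, 6.923 and 8.136 CPM in Ctrl mice and 5.863, 3.777 and 3.935 CPM in Ctrl_Swim mice. In Model mice it was 6.487, 4.849 and 35.93 CPM and in Model_Swim mice 20.03, 14.03 and 25.71 CPM. Model 3 had the highest level of all, Model 1 and Model 2 lay within the range of Ctrl, and the 3 Model_Swim mice lay above every Ctrl_Swim mouse. The difference of Model from Ctrl was 1.56 ± 0.78 on the log2 scale (adjusted p = 0.143 by edgeR), and that of Model_Swim from Ctrl_Swim was 2.14 ± 0.8 (adjusted p = 0.144). Neither passed the threshold. Without Model 3 the first difference was 0.1 (adjusted p = 0.911) and the second was called at 2.14 (adjusted p = 0.0352). With Model 3 as the only Model mouse the first was called at 2.76 (adjusted p = 0.0174) and the second at 2.13 (adjusted p = 0.0279). With Hoxb6 and Hoxb8 as a covariate the first was called at 2.53 (adjusted p = 0.0213) and the second at 2.36 (adjusted p = 0.0276), and the second was also called in a fit of those 2 groups alone and without Model 1 and Model 3. Adipocytes also express Cyp2e1, and 10 of 10 adipocyte markers were counted. Their sum ranged from 80.5 to 148 CPM in Ctrl, from 110 to 148 CPM in Ctrl_Swim, from 100 to 415 CPM in Model and from 163 to 321 CPM in Model_Swim. It was highest in Model 3, Model_Swim 1 and Model_Swim 3, which are also the 3 libraries with the most Cyp2e1, and Adipoq, which marks these cells, was 0.883 CPM in Ctrl 1, where Cyp2e1 was lowest, and 35.9 CPM in Model 3. With this list as a covariate the differences of Cyp2e1 were 0.56 ± 0.36 (adjusted p = 0.252) and 0.25 ± 0.44 (adjusted p = 0.78). The list was summed from the same libraries, so this fit does not identify the source of Cyp2e1. The part of adipocytes in these differences was not tested.

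**Figure D4:**
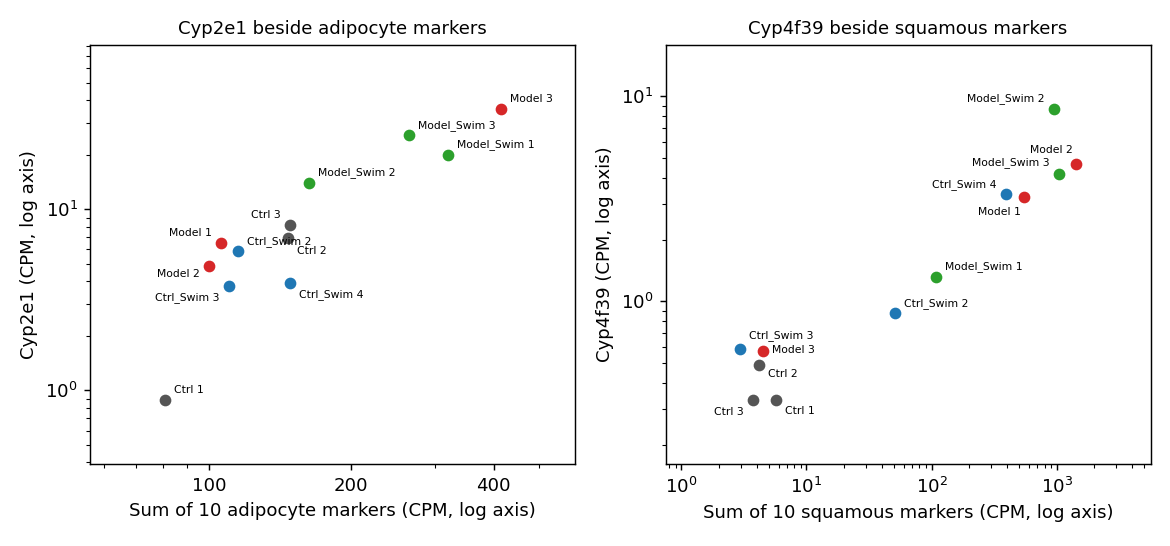
Left, Cyp2e1 against the summed CPM of 10 adipocyte markers, and right, Cyp4f39 against that of 10 squamous epithelium markers, both axes in CPM on log scales with 1 labelled point per library. Model 3 lies at the upper right for Cyp2e1 (35.93 CPM at a sum of 415 CPM), and the Model 2 and Model_Swim 2 libraries lie at the upper right for Cyp4f39.

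Among the Cyp1 genes, which oxidise polycyclic hydrocarbons and are induced through the aryl hydrocarbon receptor, none of the 2 tested passed. Cyp1a1 was 1.159, 1.036 and 1.209 CPM in Ctrl mice and 1.287, 1.308 and 0.6888 CPM in Model mice, which overlapped, with a log2 difference of -0.05 (adjusted p = 0.96). Cyp1b1, mainly a stromal gene, was 2.364 to 2.998 CPM in Ctrl mice and 3.105 to 5.855 CPM in Model mice. The groups did not overlap, but its difference of 0.64 on the log2 scale had an adjusted p of 0.434. Cyp1a2, known from liver, had no more than 6 counts in any library and was not tested.

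Of the Cyp2d genes, relatives of the human drug-metabolising CYP2D6, 6 were tested and 2 passed the adjusted p, Cyp2d34 higher and Cyp2d26 lower, where 32.7% of all genes passed. The log2 difference of Model from Ctrl was above 0 in 5 of the 6 and below 0 in 1, with a median of 0.74. Cyp2d26 was 55.97, 62.86 and 57.72 CPM in Ctrl mice and 14.42, 14.87 and 41.44 CPM in Model mice, so that all 3 Model mice were lower and the first 2 lowest. It fell by 1.32 ± 0.33 on the log2 scale (adjusted p = 0.0128 by edgeR), and the log2 difference was -2 without Model 3. The call was lost in 5 of 27 alternative settings, among them a fit of these 2 groups alone and the colonocyte list as a covariate, with adjusted p up to 0.0856. Cyp2d34 was 82.46, 60.08 and 101 CPM in Ctrl mice and 121.7, 189.7 and 121.8 CPM in Model mice, without overlap. It rose by 0.83 ± 0.2 (adjusted p = 0.0112), under the 2-fold limit, and no longer passed in 3 of 27 alternative settings. In Model_Swim mice Cyp2d34 was 117, 120.8 and 120.1 CPM, above the 58.08, 71.4 and 53.66 CPM of Ctrl_Swim mice, and the rise of 0.97 ± 0.21 had an adjusted p of 0.0269. It no longer passed in 9 of 27 alternative settings, among them leaving out any 1 of these 6 mice. Both genes lie in 1 cluster, Cyp2d34 at chr15:82615963-82620956 and Cyp2d26 at chr15:82790107-82794452. Cyp2d10, with 11.81, 10.9 and 19.08 CPM in Ctrl mice and 20.26, 34.81 and 10.62 CPM in Model mice, overlapped between the groups and did not pass (log2 difference 0.65, adjusted p = 0.196). In Model_Swim mice Cyp2d10 was 22.95, 20.72 and 14.31 CPM, above the 10.41, 9.842 and 7.002 CPM of Ctrl_Swim mice. This difference of 1.09 ± 0.38 had an adjusted p of 0.12 by edgeR, and it was called by DESeq2 (adjusted p = 0.0286), in a fit of those 2 groups alone and without Model 3. Cyp2d9 was 21.3, 18.22 and 16.38 CPM in Model_Swim mice, above the 5.096, 6.384 and 3.373 CPM of Ctrl_Swim mice. Its difference was 1.91 ± 0.54 (adjusted p = 0.0652 by edgeR). Cyp2d9 was called by DESeq2, by limma on log2(FPKM + 0.1), in a fit of those 2 groups alone and without Model 2 or Model 3. Cyp2d9 (21.8%) and Cyp2d10 (35.8%) are among the 8 tested P450 genes that share over 20% of their 50-base stretches with other genes. Their counts are therefore uncertain.

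Of the fatty acid hydroxylases of the Cyp4a, Cyp4b and Cyp4f subfamilies, 9 of 14 genes were tested and their median log2 difference of Model from Ctrl was -0.19. Cyp4f14 was 137.6, 159.8 and 161.8 CPM in Ctrl mice and 61.76, 83.08 and 123.8 CPM in Model mice, without overlap, and fell by 0.77 ± 0.19 on the log2 scale (adjusted p = 0.0117 by edgeR). It no longer passed in 4 of 27 alternative settings, among them a fit of these 2 groups alone, with adjusted p up to 0.0878. Cyp4f18, a leukotriene hydroxylase of myeloid cells, was 5.63, 3.816 and 3.738 CPM in Ctrl mice and 7.023, 9.48 and 7.634 CPM in Model mice. Every Model mouse was higher, and the rise was 0.87 ± 0.26 (adjusted p = 0.0249). It no longer passed in 7 of 27 alternative settings, among them leaving out Ctrl 2, Ctrl 3 or Model 2. Neutrophil markers, 8 of 8 counted, summed to 16.8 to 30.4 CPM in Ctrl mice and 29.4 to 150 CPM in Model mice, and macrophage markers, 8 of 8 counted, to 364 to 388 CPM and 702 to 795 CPM. Their part in the rise of Cyp4f18 was not tested. Cyp4b1, which hydroxylates fatty acids and activates some arylamines, was 16.01, 25.95 and 16.33 CPM in Ctrl mice and 4.128, 6.701 and 21.81 CPM in Model mice. Model 3 lay inside the range of Ctrl, and the log2 difference of -0.84 had an adjusted p of 0.177. Cyp4f13, Cyp4f16 and Cyp4f40 did not pass in any of the 5 comparisons made here.

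Cyp4f39 makes the omega-hydroxylated fatty acids in the ceramides of the skin barrier. It was 0.3312, 0.4906 and 0.3298 CPM in Ctrl mice and 3.216, 4.685 and 0.574 CPM in Model mice, with Model 3 near the control level but above it. It rose by 2.86 ± 0.94 on the log2 scale (adjusted p = 0.0381 by edgeR). In Ctrl_Swim mice it was 0.8767, 0.5852 and 3.322 CPM and in Model_Swim mice 1.321, 8.702 and 4.188 CPM. Cyp2b10, a target of the receptor CAR, was counted 2, 0 and 0 times in Ctrl mice, 77, 17 and 0 times in Model mice, 6, 1 and 12 times in Ctrl_Swim mice and 14, 51 and 10 times in Model_Swim mice. Model 3 and 2 Ctrl mice had none, so the groups overlapped. The ratio of the summed counts of Model to Ctrl, scaled by library size, was 47.2 with an exact 95% interval of 12.7 to 395 that covers counting error only. The quasi-likelihood test gave an adjusted p of 0.0343. Markers of squamous epithelium, 10 of 10 counted, summed to 3.74 to 5.74 CPM in Ctrl mice and to 51, 2.93 and 392 CPM in Ctrl_Swim mice. The sum was 552, 1440 and 4.53 CPM in Model mice and 109, 948 and 1040 CPM in Model_Swim mice, so that Model 3, with little Cyp4f39 and no Cyp2b10, was at the level of Ctrl. With the squamous list as a covariate, chosen after seeing the data, no P450 gene was called in this comparison and Cyp27a1 passed by adjusted p alone. In the same fit 3.16% of all genes were called, against 7.43% without the covariate. The difference of Cyp4f39 was then 0.24 (adjusted p = 0.801) and that of Cyp2b10 1.65 (adjusted p = 0.596). The list was summed from the same libraries, and the part of squamous tissue in these rises was not tested. The call of Cyp4f39 was lost in 14 of 27 alternative settings, among them leaving out any 1 Ctrl mouse, Model 1 or Model 2. That of Cyp2b10 was lost in 10 of 24, among them leaving out any 1 Ctrl mouse or Model 1.

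Cyp2s1, Cyp2j6 and Cyp3a13, 3 abundant genes of the epithelium, were each lower in Model 1 and Model 2 than in Model 3. Cyp2s1 was 122.4, 121.4 and 129 CPM in Ctrl mice and 43.69, 77.96 and 113.6 CPM in Model mice. The groups did not overlap, but the log2 difference of -0.66 ± 0.25 did not pass (adjusted p = 0.0595 by edgeR). Cyp2j6, of the epoxygenase subfamily, was 107.4, 104.3 and 104.4 CPM in Ctrl mice and 60.58, 52.08 and 85.93 CPM in Model mice. It fell by 0.67 ± 0.17 (adjusted p = 0.0116) without overlap, and no longer passed in 4 of 27 alternative settings. Cyp3a13 was 112.8, 126.8 and 127.6 CPM in Ctrl mice and 43.91, 62 and 122.6 CPM in Model mice. Model 3 lay within the range of Ctrl, and the log2 difference of -0.69 had an adjusted p of 0.08. Colonocyte markers summed to 18500 to 20900 CPM in Ctrl mice and 12500 to 17800 CPM in Model mice, but of the 10 markers 2 were higher and 2 lower by adjusted p. Car1, at 6820, 6390 and 6780 CPM in Ctrl mice and 410, 277 and 4730 CPM in Model mice (adjusted p = 0.0938 by edgeR), carried most of the lower sum, while Lypd8 rose from 5500, 5330 and 6110 CPM to 7620, 7520 and 6490 CPM (adjusted p = 0.0206). With this list as a covariate 3 P450 genes were called, Cyp26b1, Cyp7b1 and Cyp3a11 (against 3.84% of all genes). Cyp2j6 was not among those past the adjusted p in that fit. Cyp2u1, a fatty acid hydroxylase with little known of it in colon, was 2.318, 1.854 and 2.584 CPM in Ctrl mice and 0.5361, 0.7083 and 0.861 CPM in Model mice. All 3 Model mice were lower, and it fell by 1.67 ± 0.47 (adjusted p = 0.0206). The call was lost in 11 of 27 alternative settings, among them leaving out Ctrl 1, Ctrl 3, Model 1 or Model 2. Cyp2w1, a gene of fetal gut and colon tumours, did not pass (log2 difference -0.31, adjusted p = 0.404).

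Of 4 tested genes of bile acid and oxysterol metabolism, 2 passed the adjusted p in Model vs Ctrl, both higher (against 16.5% of all genes higher), and the differences of Cyp39a1 (0.02 on the log2 scale, adjusted p = 0.887) and Cyp46a1 (1.07, adjusted p = 0.112) did not. Cyp27a1, the mitochondrial sterol 27-hydroxylase (chr1:74713148-74737897), was 15.68, 18.21 and 20.89 CPM in Ctrl mice and 36.08, 28.88 and 28.53 CPM in Model mice. Each of the 9 mice outside the Ctrl group exceeded every Ctrl mouse, with 29.7, 24.53 and 26.53 CPM in Ctrl_Swim and 28.84, 27.36 and 28.36 CPM in Model_Swim. The rise from Ctrl to Model was 0.77 ± 0.12 on the log2 scale (adjusted p = 0.0016 by edgeR). It passed in all 27 alternative settings, with a highest adjusted p of 0.0168. Cyp7b1, the oxysterol 7-alpha-hydroxylase (chr3:18071944-18243890), was 1.822, 1.363 and 1.814 CPM in Ctrl mice and 3.163, 4.958 and 3.042 CPM in Model mice. The groups did not overlap, and the rise was 1.16 ± 0.27 (adjusted p = 0.00855). In Model_Swim mice Cyp7b1 was 2.422, 2.665 and 2.757 CPM, between Model and Ctrl and above all 3 Ctrl_Swim mice (2.082, 2.341 and 1.533 CPM). The call of Cyp7b1 was lost in 6 of 27 alternative settings, among them leaving out Model 2 and limma on log2(FPKM + 1), with adjusted p up to 0.0946. Macrophages express Cyp27a1 and stromal cells Cyp7b1, and 8 of 8 fibroblast markers summed to 1480 to 1610 CPM in Ctrl mice and 2550 to 2820 CPM in Model mice. Their part in these rises was not tested.

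Cyp26b1 breaks down all-trans retinoic acid and was the gene of retinoic acid breakdown with enough counts for a test (chr6:84571414-84593908). It was 3.257, 1.199 and 2.474 CPM in Ctrl mice and 7.934, 11.55 and 4.994 CPM in Model mice. All 3 Model mice were above all 3 Ctrl mice, with Model 3 the nearest to them. The rise was 1.82 ± 0.4 on the log2 scale (adjusted p = 0.00719 by edgeR). It was lost in 5 of 27 alternative settings, with adjusted p between 7.88e-05 and 0.128. With Model 3 as the only Model mouse the difference was 1.11 (adjusted p = 0.128, its spread assumed as above). In vitamin D metabolism, Cyp2r1, which makes 25-hydroxyvitamin D, was 1.044 to 1.526 CPM in Ctrl mice and 1.263 to 1.634 CPM in Model mice, which overlapped (log2 difference 0.14, adjusted p = 0.747). Cyp27b1 had no more than 8 counts in any library, and Cyp24a1, which degrades the hormone, had 1 count in all. In steroid hormone synthesis, Cyp11a1, the side-chain cleavage enzyme, was 1.104, 0.4906 and 1.429 CPM in Ctrl mice and 3.002, 1.907 and 0.5166 CPM in Model mice. The groups overlapped, with a log2 difference of 0.84 (adjusted p = 0.368).

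**Figure D5:**
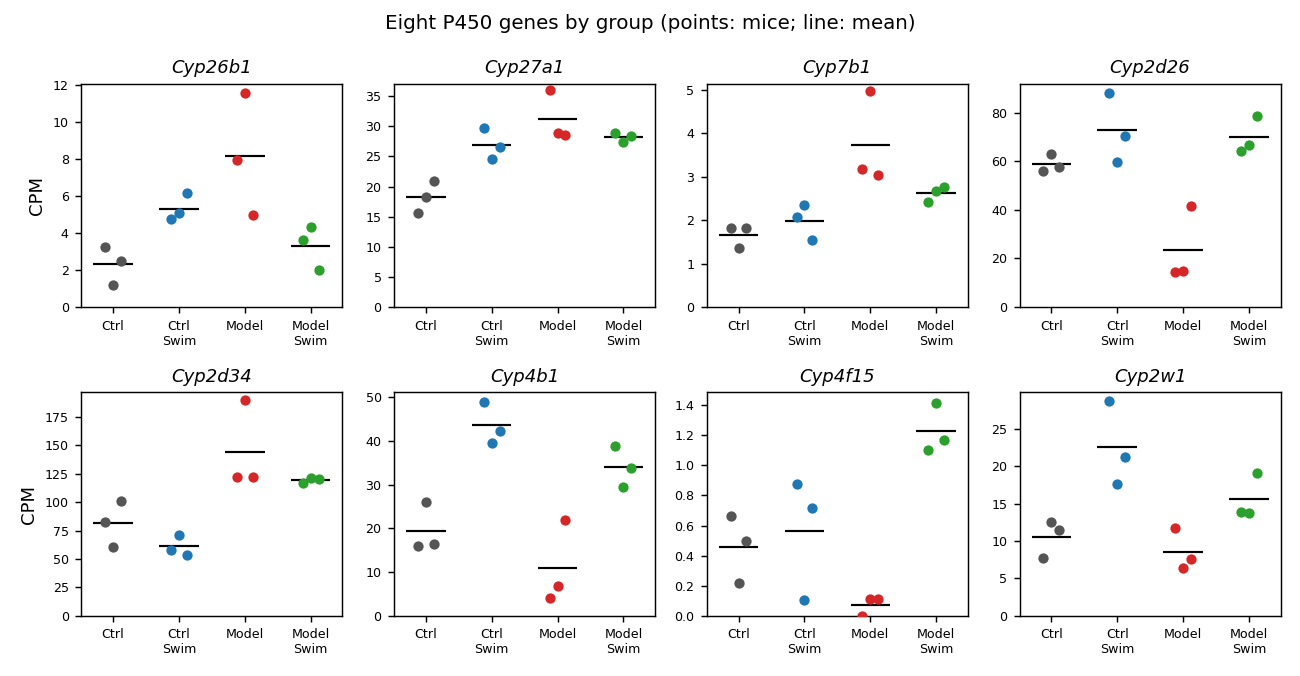
CPM of 8 P450 genes in the 4 groups, with 1 point per mouse and a line at the group mean. Cyp27a1 is lowest in the 3 Ctrl mice (15.68 to 20.89 CPM), and Cyp2d26, Cyp4b1 and Cyp4f15 are higher in Model_Swim than in Model. The group mean of Cyp26b1 is highest in Model, though Model 3 (4.994 CPM) lies below Ctrl_Swim 3 and Ctrl_Swim 4.

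The comparison of Model_Swim with Model asks whether swimming changed these genes in mice given AOM and DSS. No P450 gene was called by edgeR, either with the 2-fold limit (0 of 48, against 0.071% of all genes) or by adjusted p alone (0 of 48, against 0.071%). At an unadjusted p under 0.05 there were 9 (18.8%, against 13.6% of all genes), and in 11 genes the groups did not overlap (22.9%, against 16.9%). DESeq2 called 2, Cyp2d26 and Cyp4f15 (against 0.625% of all genes in its table), and limma 0. Cyp2d26 was 64.23, 66.84 and 78.51 CPM in Model_Swim mice, above the Model mice and within the range of the 6 mice without AOM and DSS. Its difference from Model was 1.57 ± 0.34 on the log2 scale (adjusted p = 0.115 by edgeR). Cyp4f15, a rare transcript, was 0, 0.109 and 0.1148 CPM in Model mice, all under 3 counts, and 1.101, 1.414 and 1.166 CPM in Model_Swim mice. The latter were the highest 3 of the 12 libraries, and the log2 difference was 3.94 ± 0.86 (adjusted p = 0.118). Cyp4b1 was 38.75, 29.37 and 33.66 CPM in Model_Swim mice, above all Model mice, with a log2 difference of 1.65 ± 0.46 (adjusted p = 0.195). Cyp26b1 was 3.632, 4.297 and 2.015 CPM in Model_Swim mice, below all Model mice, with a log2 difference of -1.3 ± 0.4 (adjusted p = 0.227). Without Model 3, 8 P450 genes were called in this comparison (16%, against 2.09% of all genes). Cyp2c65 (log2 difference 3.12), Cyp2c55 (2.6), Cyp4b1 and Cyp2d26 (2.26) were then higher in Model_Swim, and Cyp26b1 was lower (-1.54). The Model mice that remain in that fit are those with Hoxb6 and Hoxb8 near 0.

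In mice without AOM and DSS, swimming gave no P450 call by edgeR with the 2-fold limit (0 of 48, against 0.168% of all genes) or by adjusted p alone (0 of 48, against 0.969%). At an unadjusted p under 0.05 there were 6 (12.5%, against 17.6%), and 11 genes did not overlap between the groups (22.9%, against 27.4%). DESeq2 called 1, Cyp2w1 (against 0.413% of all genes), and limma 0. The median log2 difference was 0.26 over the 48 genes, with 34 above 0 and 14 below, and 0 over all genes tested. Cyp2w1 was 7.728, 12.59 and 11.49 CPM in Ctrl mice and 28.77, 17.61 and 21.21 CPM in Ctrl_Swim mice. All Ctrl_Swim mice were higher, by 1.09 ± 0.27 on the log2 scale (adjusted p = 0.0898 by edgeR). Cyp4b1 was 48.82, 39.48 and 42.22 CPM in Ctrl_Swim mice, above all Ctrl mice, with a log2 difference of 1.16 ± 0.45 (adjusted p = 0.223). In a fit of those 2 groups alone edgeR called Cyp4b1 and Cyp2w1 (against 0.352% of all genes). Cyp4b1 was also called without Model 3 (against 0.236%) and with Hoxb6 and Hoxb8 as a covariate (against 0.232%). Cyp2w1 was also called without Model 1 (against 0.243%). Cyp27a1 differed by 0.56 ± 0.12 (adjusted p = 0.0595) without overlap, and Cyp26b1, at 4.767, 5.054 and 6.133 CPM in Ctrl_Swim mice, by 1.2 ± 0.4 (adjusted p = 0.18), also without overlap.

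Between swimming mice with and without AOM and DSS, no P450 gene was called with the 2-fold limit (0 of 48, against 1% of all genes) and 1, Cyp2d34, passed by adjusted p alone (2.08%, against 5.18%). At an unadjusted p under 0.05 there were 7 (14.6%, against 22.4%), and 16 genes did not overlap (33.3%, against 32.4%). DESeq2 called 3, Cyp2d9, Cyp2d10 and Cyp3a11 (against 1.49% of all genes), and limma on log2(FPKM + 0.1) called 1, Cyp2d9 (against 0.924%). The interaction, which tests whether swimming acted differently with and without AOM and DSS, gave no call in the family (0 of 48) and none among all genes (0%), with the 2-fold limit or by adjusted p alone. At an unadjusted p under 0.05 there were 7 P450 genes (14.6%, against 19% of all genes), and DESeq2 called 1, Cyp26b1 (against 1.16% of all genes), and limma 0. Of the P450 genes, Cyp26b1 was higher in swimming mice without AOM and DSS and lower in those with it, and its interaction was -2.5 ± 0.56 on the log2 scale (adjusted p = 0.115 by edgeR). The interaction of Cyp27a1 was -0.7 ± 0.17 (adjusted p = 0.115), that of Cyp4f15 was 3.64 ± 1.12 (adjusted p = 0.143) and that of Cyp2d26 was 1.26 ± 0.46 (adjusted p = 0.183). Model_Swim vs Model shares its Model mice with Model vs Ctrl, so a gene that was low in Model 1 and Model 2 enters both comparisons.

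The partners and regulators of P450 enzymes were examined as lists. Of 13 tested genes for electron transfer and heme, 1 was higher and 5 were lower in Model than in Ctrl by adjusted p (against 16.5% and 16.2% of all genes), and none changed over 2-fold. Heme oxygenase Hmox1 was higher by 0.71 on the log2 scale (adjusted p = 0.0379 by edgeR). Lower were Cyb5a, Cyb5b and Cyb5r4 of the cytochrome b5 system, the adrenodoxin Fdx1 and Pgrmc1. Por, the reductase that supplies all microsomal P450 enzymes, was 176, 167 and 187 CPM in Ctrl mice and 112, 134 and 171 CPM in Model mice, which overlapped (log2 difference -0.34, adjusted p = 0.099). Of 26 tested regulators, 4 were higher and 8 lower by adjusted p, against the same shares of all genes. Over 2-fold lower (against 1.22% of all genes) were Dbp, Hlf and Tef, the PAR bZIP factors of the circadian output, and the nuclear receptor Hnf4g. Dbp was 64, 58.9 and 70 CPM in Ctrl mice and 6.97, 11.6 and 21.1 CPM in Model mice, and fell by 2.28 (adjusted p = 0.000638). Dbp and Tef were also the 2 regulators called in Model_Swim against Model, with rises of 2.26 (adjusted p = 0.0134) and 1.58 (adjusted p = 0.000895), where 0.071% of all genes were called. The letters of their D-box, TTATGNAA, were present in 9.21% of the P450 promoters (7 of 76) and 3.38% of all promoters. Most of the 7 belong to related neighbours on chromosome 7, Cyp2a4, Cyp2a5, Cyp2b10, Cyp2b19 and Cyp2b23, and the others to Cyp27a1 and Cyp4f14. In Model vs Ctrl, Cyp27a1 and Cyp2b10 were higher and Cyp4f14 lower by adjusted p. A link of Dbp or Tef to these genes was not tested. The hour at which each mouse was sampled is not given in the sources used here, and its part in the levels of Dbp and Tef was not tested. Hnf4a differed by -0.38 (adjusted p = 0.0143), Vdr by -0.61 (adjusted p = 0.0303) and Ahr by 0.37 (adjusted p = 0.0279), while Nr1i2, the receptor PXR, differed by -0.09 (adjusted p = 0.505). Of 6 tested targets of the aryl hydrocarbon receptor, 1 (Aldh3a1) was higher, by 2.53 (adjusted p = 0.0313), and of 4 tested epoxide hydrolases 1 (Ephx3), by 2.37 (adjusted p = 0.0431), where 16.5% of all genes were higher. Aldh3a1 and Ephx3 were both lowest in Model 3 among the Model mice, as the squamous markers were, and the part of squamous tissue was not tested here either.

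The 38 P450 genes that were not tested had few counts. In 7 of them at least 1 library had over 10 counts. Their counts summed to between 17 and 98 per library, with the highest sums in Ctrl 3 (98 counts, in 21 of the genes) and Ctrl_Swim 2 (91 counts, in 22 genes). Ctrl 3 also had the most Alb, the albumin gene of hepatocytes, at 100 CPM against 0.491 to 16.4 CPM in the other libraries. Ctrl_Swim 2 had 10.1 CPM of Alb, below Model 1 and Model 2, and Model_Swim 2 had 72 of these counts at 2.88 CPM. The source of these counts was not tested. All 15 hepatocyte markers were counted in the Ctrl group, with sums of 89.2, 91.8 and 302 CPM. In Ctrl 1 and Ctrl 2 most of the sum came from Cps1 (45.3 and 58.9 CPM), Tat (19.5 and 14 CPM) and Ttr (18.2 and 14.3 CPM). Alb was 1.38 and 0.491 CPM in these 2 libraries. Cyp21a1, the steroid 21-hydroxylase, named here after its values were seen, had 42, 4 and 0 counts in Model mice, 7, 4 and 15 counts in Model_Swim mice and none in the 6 mice without AOM and DSS. DESeq2, which was run without the filter, called it in Model vs Ctrl (adjusted p = 0.00892), as did edgeR without Model 3, where it passed the filter (adjusted p = 0.017). It overlaps the pseudogene Tnxa in the annotation, and the strand setting of the counting is not given in the sources used here, so its counts may hold reads of that gene.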

How the data were processed

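Total RNA of colorectal tissue was sequenced as stranded mRNA libraries on an Illumina HiSeq X instrument. After trimming (Trimmomatic) and alignment (HISAT2), HTSeq-count gave the raw counts that the authors deposited. They also deposited FPKM values per gene, calculated with Cufflinks. Tool versions and the strand setting are not given in the sources used here. The build GRCm38.p6 comes from the submitters' processing notes.

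The counts were analysed with edgeR 4.0.16 (R 4.3.3) by TMM, filterByExpr with a minimum count of 10 and the quasi-likelihood test over all 12 libraries in 4 groups. P-values were adjusted by Benjamini-Hochberg over all 15484 genes tested. A gene was called at an adjusted p under 0.05 with a fold change over 2 or under 0.5. CPM values are scaled by TMM. DESeq2 1.42.0 and limma 3.58.1 served as alternatives. The fits were tested on simulated data with the same spread in every group. Real Model mice differed more among themselves than the mice of other groups, and the simulation does not cover that. The P450 genes, the lists of partners, regulators and markers, and the alternatives were chosen with earlier results of these data known. Named were genes called in any comparison, the 15 highest by mean FPKM and a list of genes fixed by role. Other genes are named where they carry a count or a list. Cyp11b1, on that list, is not among the genes of the raw counts, so it was not analysed here.

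Promoters and gene positions are from RefSeq on GRCm38.p6. All 86 symbols were found there, and 69 had a promoter. Each group holds 3 mice. P-values set each difference against the spread between mice, which was estimated for each gene over all 4 groups together. Comparisons without Model mice therefore also carry the spread of Model. Within Model, pairs of mice had a chi-square per degree of freedom, a measure of difference beyond sampling noise, of 77.1 to 115. Pairs within the other groups had 7.4 to 22.3. Replicates differed by more than sampling noise, so none was taken as a repeat of another. Intervals cover counting error only.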

Additional observations from a re-analysis of the deposited data

Results flagged for a closer look

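The differences of Cyp26b1 with swimming had opposite signs. It was higher in all Ctrl_Swim mice than in all Ctrl mice and lower in all Model_Swim mice than in all Model mice. Its interaction log2 difference was -2.5 ± 0.56 and missed the threshold by edgeR (adjusted p = 0.115), while DESeq2 called it at -2.51 (adjusted p = 0.00181). Those of Cyp4f15 with AOM and DSS did too, the gene being lower in all Model mice than in all Ctrl mice and higher in all Model_Swim mice than in all Ctrl_Swim mice. Its interaction was 3.64 ± 1.12 (adjusted p = 0.143), and no Model mouse had more than 2 of its counts.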

How the results depend on the processing

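The count of 6 P450 genes called in Model vs Ctrl ranged from 3 to 19 when 1 library was left out, from 0 to 8 in Model_Swim vs Model, from 0 to 1 in Ctrl_Swim vs Ctrl, from 0 to 3 in Model_Swim vs Ctrl_Swim and from 0 to 7 for the interaction. The highest count of each was reached without Model 3 (10.7%, 2.09%, 0.236%, 1.75% and 1.58% of all genes), and without Model 1 or Model 2 the first was 3. In the order of these 5 comparisons, leaving out Model 1 and Model 3 gave 17, 6, 2, 4 and 6 (8.09%, 1.34%, 0.364%, 2.03% and 1.56% of all genes). The other values that moved by over 1.5 times follow, each with the share of all genes in parentheses. In Model vs Ctrl, the count was 11 by adjusted p alone (32.7%), 3 by limma on log2(FPKM + 1) (3.26%), 2 by the same without a filter (2.32%), 12 with the adipocyte list as a covariate (8.45%) and 3 with the colonocyte list (3.84%), and, within 1.5 times of 6, it was 8 by DESeq2 (7.44%) and 4 both in a fit of those 2 groups alone (5.66%) and with the hepatocyte list (6.85%). In Model_Swim vs Model it was 2 by DESeq2 (0.625%). In Ctrl_Swim vs Ctrl it was 1 by DESeq2 (0.413%) and 2 in a fit of those 2 groups alone (0.352%). In Model_Swim vs Ctrl_Swim it was 1 by adjusted p alone (5.18%), by limma on log2(FPKM + 0.1) (0.924%) and with the colonocyte list (2.32%), 2 with the hepatocyte list (0.788%), and 3 by DESeq2 (1.49%), in a fit of those groups alone (1.81%) and with the adipocyte list (1.47%). For the interaction it was 1 by DESeq2 (1.16%). Alternatives chosen after seeing the data moved further values. Without Model 1 and Model 2 the counts were 2 in Model vs Ctrl, 2 in Ctrl_Swim vs Ctrl and 3 in Model_Swim vs Ctrl_Swim (4.43%, 0.352% and 2.04% of all genes). Both of these double exclusions leave 1 Model mouse, assumed to vary like the other groups. With the squamous list as a covariate they were 0 in Model vs Ctrl and 2 in Model_Swim vs Model (3.16% and 0.4% of all genes). With Hoxb6 and Hoxb8 they were 2 in Model vs Ctrl, 1 in Ctrl_Swim vs Ctrl and 2 in Model_Swim vs Ctrl_Swim (4.39%, 0.232% and 1.52%). Cyp2b10 reversed to -2.67 without Model 1 and Model 2 and to -1.08 with Hoxb6 and Hoxb8, neither past the threshold, and in the first Model 3 alone remained with 0 counts, so that it is no measured fold change. The cause was not tested.

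The replicate numbers did not pair the mice, since same-numbered libraries correlated between -0.26 and 0.56 in their deviations from the group means. The replicate block gave 7 calls in Model vs Ctrl (7.16% of all genes) and 0 in the other comparisons, and Cyp2d34 in Model_Swim vs Ctrl_Swim lost its adjusted p (0.147). Depth limits genes such as Cyp4f15 and Cyp2b10, with few counts in a group.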
